A study of Mus musculus with 20 samples.

Results

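The genes described here are 39 genes of DNA replication and deoxynucleotide synthesis, followed through RNA sequencing libraries of mouse melanoma and T cells. They were taken by name from a count table of 46603 genes, as a list chosen with earlier results of these data known. By role they comprise 6 genes of origin recognition and licensing, the 6 subunits of the MCM2-7 helicase, 6 genes that turn the loaded helicase into an active one, 6 polymerase and primase genes, 9 genes of the sliding clamp, its loader, single-strand binding, flap removal, ligation and maintenance methylation, and 6 genes of deoxynucleotide supply. All 39 passed the filter on low counts in every fit.

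The libraries form 10 groups of 2. B16F10, a mouse melanoma line kept under puromycin, was labelled control or Ccdc101 KO (Ccdc101, named Sgf29 in the annotation, encodes a subunit of the SAGA chromatin complex), and each genotype was given dimethyl sulfoxide (the vehicle) or 50 ng/mL thapsigargin (TG), which blocks the SERCA pumps that load calcium into the endoplasmic reticulum, for 8 hours. OT-I/Cas9 CD8 T cells carry a transgenic T cell receptor for an ovalbumin peptide and the Cas9 nuclease. Control T cells were resting or were activated for 24 hours on plates coated with 2.5 µg/mL anti-CD3, each with vehicle or TG, and Atp2a2 KO T cells (Atp2a2 encodes SERCA2, a target of TG) were labelled resting or activated and had vehicle alone. All T cells, the resting ones included, were kept in IL-2, IL-7, IL-15 and puromycin, so resting means cells in cytokine culture without anti-CD3. The sources used here do not say whether a knockout is a clone or a pool or in which order TG and anti-CD3 were given, nor whether the 2 libraries of a group came from separate cultures, so the p-values measure only the spread between these libraries, which may be technical.

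Before S phase, the origin recognition complex, Cdc6 and Cdt1 load the MCM2-7 ring onto DNA, and geminin keeps Cdt1 from loading it again. Cdc45 and the GINS complex then turn the ring into a moving helicase, behind which the polymerases copy DNA with the help of the PCNA clamp, while ribonucleotide reductase, thymidylate synthase and the salvage kinases supply deoxynucleotides. Many of these genes are transcribed around the entry into S phase under E2F factors, and both cytokine-fed T cells and melanoma lines divide quickly in culture. In bulk RNA, fewer cells in S phase and less of an mRNA per cell cannot be told apart.

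Total counts ran from 9985311 to 17462770 per library, and the 39 genes took between 0.188% and 0.838% of them. CPM (counts scaled to a common library total) below are scaled within each cell type by trimmed means, and the tests are edgeR quasi-likelihood tests with Benjamini-Hochberg adjustment over all tested genes, called at an adjusted p under 0.05. Melanoma libraries had summed CPM of 4767 to 9538 for 6 melanocyte markers and at most 7.60 for 7 CD8 T cell markers. T cell libraries had 2184 to 4920 for the CD8 markers and at most 5.13 for the melanocyte markers, and markers of B, NK, CD4, myeloid and red cells summed to at most 2.01 CPM in any library; 4 fibroblast genes reached 26.6 CPM in melanoma. Sgf29 was at 29.6 and 28.2 CPM in control and 19.6 and 18.7 CPM in Ccdc101 KO melanoma with vehicle (log2 change -0.59 ± 0.085, adjusted p = 6.6e-07). Atp2a2 was at 664 and 687 CPM in activated control and 434 and 436 CPM in activated KO T cells (log2 change -0.63 ± 0.034, adjusted p = 9.1e-23).

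The libraries labelled resting Atp2a2 KO stood beside the activated KO libraries and went against their label. Atp2a2 itself was higher there, at 455 and 452 CPM, than in resting control cells, at 225 and 226 CPM. Ifng was at 9.01 and 9.79 CPM in resting control, 4712 and 4874 in activated control, 7386 and 7815 in activated KO cells and 7364 and 7414 CPM in the labelled resting KO libraries. Of 13432 genes tested, 0.469% were called higher and 0.119% lower in activated than in labelled resting KO libraries. Results that rest on these libraries are therefore given apart.

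Upstream sequence was matched for 32 of the 39 genes in RefSeq (GRCm38.p6). Gmnn, Mcm4, Gins1, Gins2, Gins4, Prim2 and Pole had no entry. In the 250 bases before each start, on either strand, 3 sets of letters were searched. The 8 letters of a strict E2F site (TTTGGCGC, TTTCGCGC, TTTCCCGC or TTTGCCGC) occurred upstream of 9 of the 32 genes (28.1%) and of 2.2% of 27025 genes in the table. CCAAT occurred in 20 (62.5%, against 37.5% of all genes) and the CHR letters TTTGAA or TTCGAA in 7 (21.9%, against 19.6%). A match is a description of the letters in this window and not a measured site. The windows below show the E2F letters, in capitals, in the MCM and licensing genes that carried them; they are written 5′ to 3′ on the gene's own strand and were chosen after the values had been seen.
Mcm5 (chr8:75109340-75109383, plus strand): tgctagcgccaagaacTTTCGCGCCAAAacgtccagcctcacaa
Mcm6 (chr1:128359788-128359831, minus strand): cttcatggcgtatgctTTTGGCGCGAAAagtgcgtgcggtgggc
Mcm7 (chr5:138172025-138172064, minus strand): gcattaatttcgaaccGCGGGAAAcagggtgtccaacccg
Orc1 (chr4:108579411-108579450, plus strand): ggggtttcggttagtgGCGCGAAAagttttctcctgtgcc
Cdc6 (chr11:98907997-98908036, plus strand): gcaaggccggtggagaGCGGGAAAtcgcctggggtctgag

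In Mcm5 and Mcm6, matches on both strands overlapped, so the capitals run on across both, and Mcm6 holds a further match nearer its start. The other genes with a match were Gins3, Pola1, Rfc3 and Uhrf1. The median log2 change with TG in control melanoma was -1.58 for the 9 genes with an E2F match and -1.59 for those without. It was -1.59 with and -1.63 without CCAAT, and -1.13 for the 7 genes with and -1.73 for those without the CHR letters; these differences were not tested. Tk1, which fell most with TG in melanoma, Orc2, which rose, and Cdc45, which fell least there, had no E2F match in any start listed for them. Their 250 bases are shown because these 3 genes mark the extremes of the response in melanoma; capitals mark the CHR letters (TTTGAA) and the CCAAT letters read on the other strand (ATTGG) of Cdc45, and the start shown for Orc2 is 1 of 2, the other of which holds CCAAT.
Tk1 (chr11:117826015-117826264, minus strand): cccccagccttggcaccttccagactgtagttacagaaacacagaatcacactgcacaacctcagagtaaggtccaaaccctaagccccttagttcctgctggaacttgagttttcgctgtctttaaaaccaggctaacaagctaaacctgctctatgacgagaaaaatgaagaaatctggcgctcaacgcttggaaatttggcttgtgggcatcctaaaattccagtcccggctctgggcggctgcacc
Orc2 (chr1:58505110-58505359, minus strand): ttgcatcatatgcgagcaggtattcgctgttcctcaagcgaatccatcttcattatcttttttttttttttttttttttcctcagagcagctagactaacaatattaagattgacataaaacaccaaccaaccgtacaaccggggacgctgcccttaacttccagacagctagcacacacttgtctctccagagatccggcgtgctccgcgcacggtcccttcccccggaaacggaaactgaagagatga
Cdc45 (chr16:18811973-18812222, minus strand): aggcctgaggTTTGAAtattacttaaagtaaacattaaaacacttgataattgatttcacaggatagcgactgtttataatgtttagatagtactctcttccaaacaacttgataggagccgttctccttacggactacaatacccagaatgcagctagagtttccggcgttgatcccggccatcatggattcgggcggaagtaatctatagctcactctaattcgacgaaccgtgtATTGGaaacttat

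With vehicle, the summed level of the genes was highest in control melanoma and lowest in activated KO T cells. Their summed CPM was 8261 and 8161 in control melanoma, 7566 and 7763 in Ccdc101 KO melanoma, 5295 and 5146 in resting control T cells and 4238 and 4322 in activated control T cells. The libraries labelled resting Atp2a2 KO had 3476 and 3501 CPM, and activated Atp2a2 KO cells had 3251 and 3352. With TG the sum was 2757 and 2688 in control melanoma, 2787 and 2818 in KO melanoma, 2109 and 2101 in resting and 1851 and 1861 in activated T cells. Every TG library lay below every vehicle library in this sum. Melanoma and T cells were scaled apart, so a sum set across the cell types is a description.

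**Figure D1:**
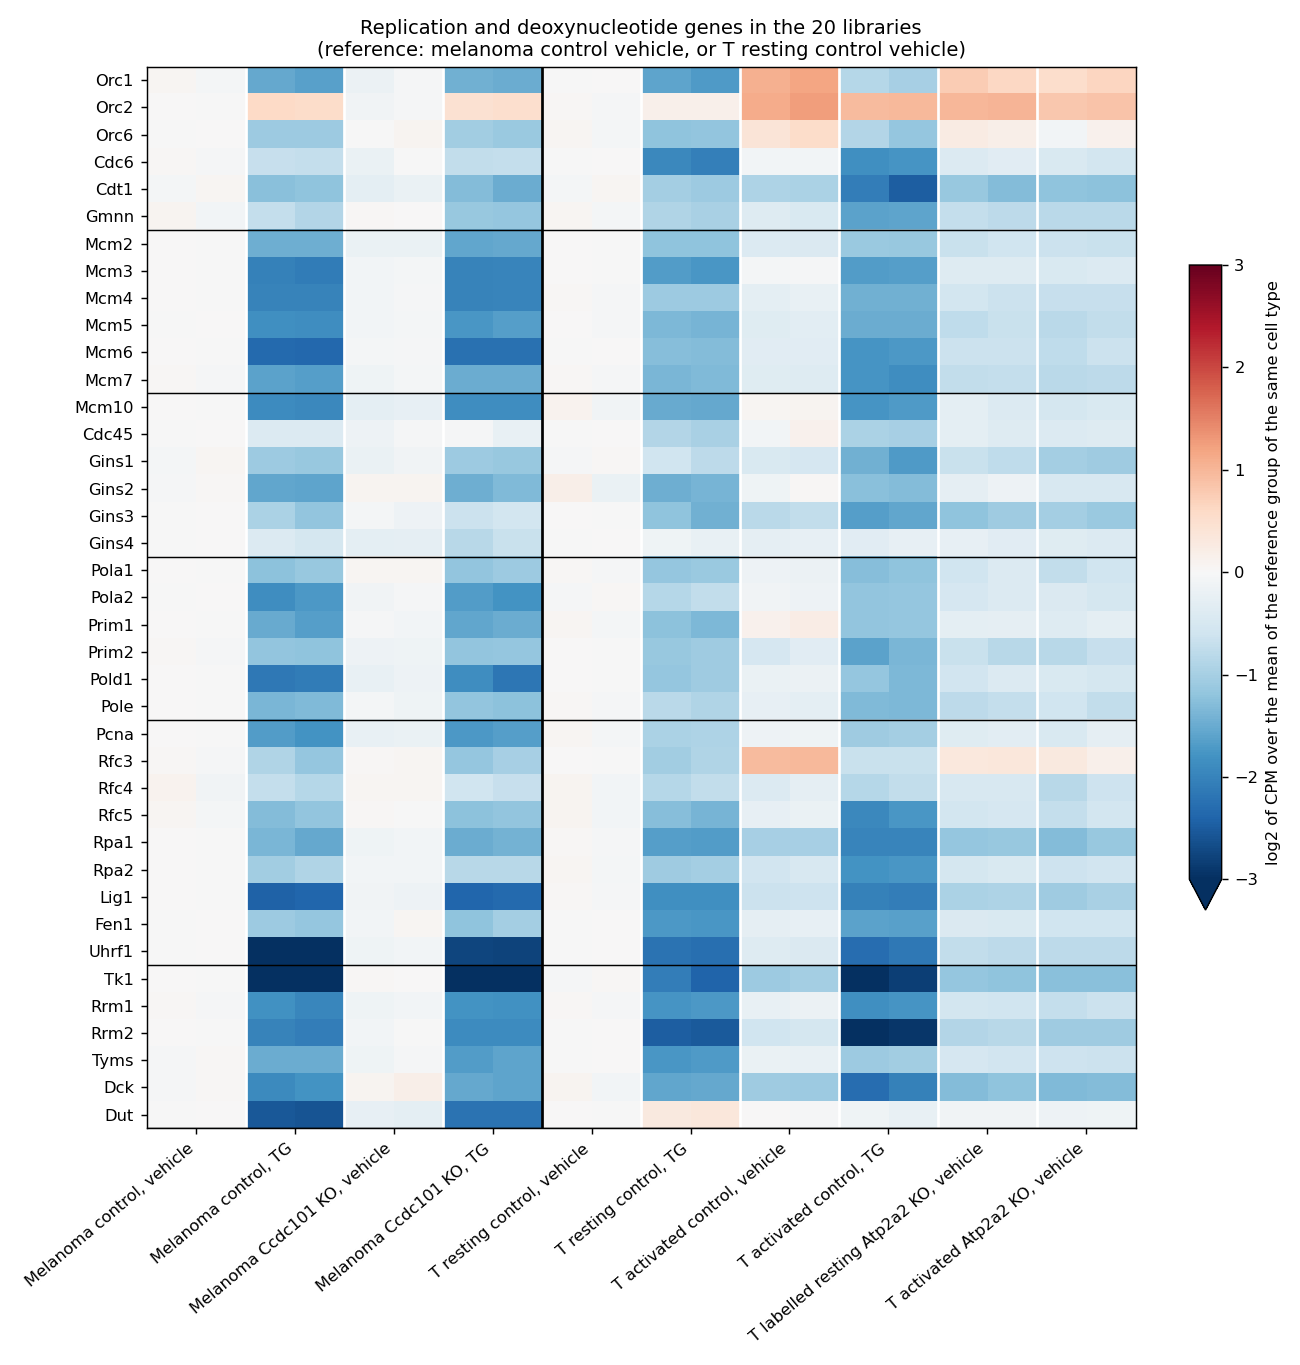
Each cell is 1 library and each row 1 gene, ordered by role and divided by black lines; colour gives log2 of CPM over the mean of the vehicle control of the same cell type (control melanoma, or resting control T cells), limited to 3 either way, with the mean of the reference group white. The 4 TG groups are the darkest blue columns, Orc2 is red with TG in both melanoma genotypes, and Orc1, Orc2 and Rfc3 are red in activated T cells with vehicle.

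On 1 scaling of all 20 libraries, 25 of the 39 genes had their highest group mean in control melanoma with vehicle, 6 in resting control T cells (Gmnn, Gins2, Gins3, Pola2, Pole and Dck), 4 in Ccdc101 KO melanoma with vehicle (Orc6, Pola1, Rfc4 and Tk1), 2 in activated T cells (Orc1 and Rfc3), Orc2 in control melanoma with TG and Dut in resting T cells with TG. Per kilobase of the longest coding transcript, ribonucleotide reductase subunit Rrm2 led in control melanoma with 266 CPM per kb, followed by Mcm2 with 228, Rrm1 with 165 and Pcna with 162, and Gins2 was lowest with 5.32. In resting T cells Rrm2 led with 163 CPM per kb before Pcna with 142, and in activated T cells Pcna led with 123. The 6 MCM subunits, which form a ring of 1 copy each, spread 3.45-fold per kilobase in control melanoma, from Mcm7 to Mcm2, and 1.5-fold in resting T cells, from Mcm7 to Mcm3. Levels per kilobase rest on the annotated transcript lengths, so the order of neighbours is a description.

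TG lowered nearly all of the genes in control melanoma. Of the 39, 38 fell and 1, Orc2, rose, while 36.1% of all 12540 tested genes were called lower and 35.7% higher. The median log2 change was -1.48, against -0.00082 over all tested genes, and 32 of the 38 fell at least 2-fold, as did 10.4% of all tested genes. None of the 39 had overlapping vehicle and TG libraries. The share of all tested genes without overlap was not counted, so this is a description.

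Tk1, the salvage kinase of thymidine in S phase, had 119 and 118 CPM with vehicle and 4.76 and 4.57 CPM with TG, a 25.4-fold drop. Uhrf1, which reads DNA methylated on 1 strand behind the fork and recruits the maintenance methyltransferase, went from 545 and 557 to 60.1 and 62.5 CPM (log2 change -3.17 ± 0.043, adjusted p = 4.9e-42). Dut, the pyrophosphatase that clears dUTP, went from 137 and 140.3 to 23.6 and 23.0 CPM (-2.57 ± 0.061, adjusted p = 5.3e-33). Lig1, the ligase that joins Okazaki fragments, had 261 and 255 CPM with vehicle and 48.0 and 49.9 CPM with TG (-2.40 ± 0.048, adjusted p = 1.5e-35). In all 4 the TG libraries lay far below both vehicle libraries and close to each other.

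Deoxynucleotide supply was the role with the lowest median (-1.97 on the log2 scale), and all 6 of its genes fell at least 2-fold. The MCM2-7 helicase was close to it at -1.93. In Ccdc101 KO melanoma the order was the other way, at -1.77 for supply and -1.78 for the helicase. Of the large and the small subunit of ribonucleotide reductase, Rrm1 went from 716 and 688 to 198 and 181 CPM (log2 change -1.89 ± 0.038, adjusted p = 1.4e-34) and Rrm2 from 622 and 619.5 to 155 and 147 CPM (-2.04 ± 0.037, adjusted p = 4.3e-37). Dck, the deoxycytidine kinase, went from 61.5 and 64.0 to 16.7 and 18.2 CPM (-1.84 ± 0.078), and Tyms, thymidylate synthase, fell by 1.48. The high libraries were those with vehicle throughout.

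The 6 MCM subunits fell together, by between 1.47 and 2.34. Mcm6 had 582 and 571 CPM with vehicle and 115 and 113 CPM with TG (log2 change -2.34 ± 0.038, adjusted p = 5e-39), and Mcm2 824 and 808 CPM with vehicle against 294 and 294 CPM with TG (-1.47 ± 0.032, adjusted p = 2.4e-34). Mcm2 had the smallest change of the 6, and it stayed the most abundant subunit per kilobase with TG. Mcm3, Mcm4, Mcm5 and Mcm7 fell by 2.06, 2.00, 1.86 and 1.62; the Mcm7 gene also holds a cluster of microRNAs in its introns and overlaps Ap4m1 and Cops6 at its exons, and the strand used in counting is not stated.

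Of the 6 licensing genes 5 fell and Orc2 rose, with a median of -0.95 on the log2 scale. Orc1 and Orc6, subunits of the origin recognition complex, fell by 1.58 and 1.09, the loader Cdt1 went from 171 and 186 to 75 and 77.0 CPM (log2 change -1.23 ± 0.054), and its inhibitor geminin (Gmnn) from 36.9 and 33.3 to 21.4 and 19 CPM (-0.80 ± 0.086). Cdc6, the loader that works beside Cdt1, went from 87.4 and 84.2 to 52.7 and 52.2 CPM (-0.71 ± 0.06, adjusted p = 4.7e-14); its TG libraries were the lower ones. Orc2, another subunit of the complex, had 236 and 231 CPM with vehicle and 351 and 344 CPM with TG, and both TG libraries lay above both vehicle libraries (0.58 ± 0.037, adjusted p = 1.1e-17). Orc2 shares 1150 bases of exon with Nif3l1 on the opposite strand, whose own log2 change was 0.04 (adjusted p = 0.46).

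Among genes of helicase activation the range was wide. Mcm10, a scaffold of the starting fork, fell by 1.91, and the GINS subunits Gins1, Gins2, Gins3 and Gins4 fell by 1.11, 1.57, 1.06 and 0.47. Cdc45 went from 84.9 and 87.4 to 65.1 and 64.8 CPM, the smallest drop of the 38 (log2 change -0.41 ± 0.059, adjusted p = 1.5e-07). It overlaps Ufd1 over 209 bases of exon, and Ufd1 rose by 0.66, so reads of Ufd1 in the Cdc45 count were not told apart. Gins2 overlaps Gse1 over 2758 bases and Rfc5 overlaps Wsb2 over 499, and these neighbours had log2 changes of -1.09 and -1.35.

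Polymerase and primase genes fell by between 1.18 and 2.12. Pold1, the catalytic subunit of the lagging-strand polymerase delta, had 173 and 173 CPM with vehicle and 39.1 and 40.4 CPM with TG (log2 change -2.12 ± 0.061). Pole, that of the leading-strand polymerase epsilon, fell by 1.35, the polymerase alpha genes Pola1 and Pola2 by 1.18 and 1.79, and the primase genes Prim1 and Prim2 by 1.59 and 1.19. Each of the 6 had both TG libraries below both vehicle libraries.

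Pcna, the sliding clamp, went from 262 and 261 to 81.9 and 76.0 CPM (log2 change -1.73 ± 0.045, adjusted p = 1.4e-31); a processed copy of it in the genome held 5338 counts over all libraries, so Pcna reads may be counted in part. The clamp loader genes Rfc3, Rfc4 and Rfc5 fell by 1.04, 0.79 and 1.24. The single-strand binding genes Rpa1 and Rpa2 fell by 1.45 and 0.97, Rpa1 from 428 and 422 to 165 and 146 CPM, and the flap nuclease Fen1 by 1.13. The clamp thus fell further than the 3 subunits of its loader, which is a comparison of estimates and was not tested.

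**Figure D2:**
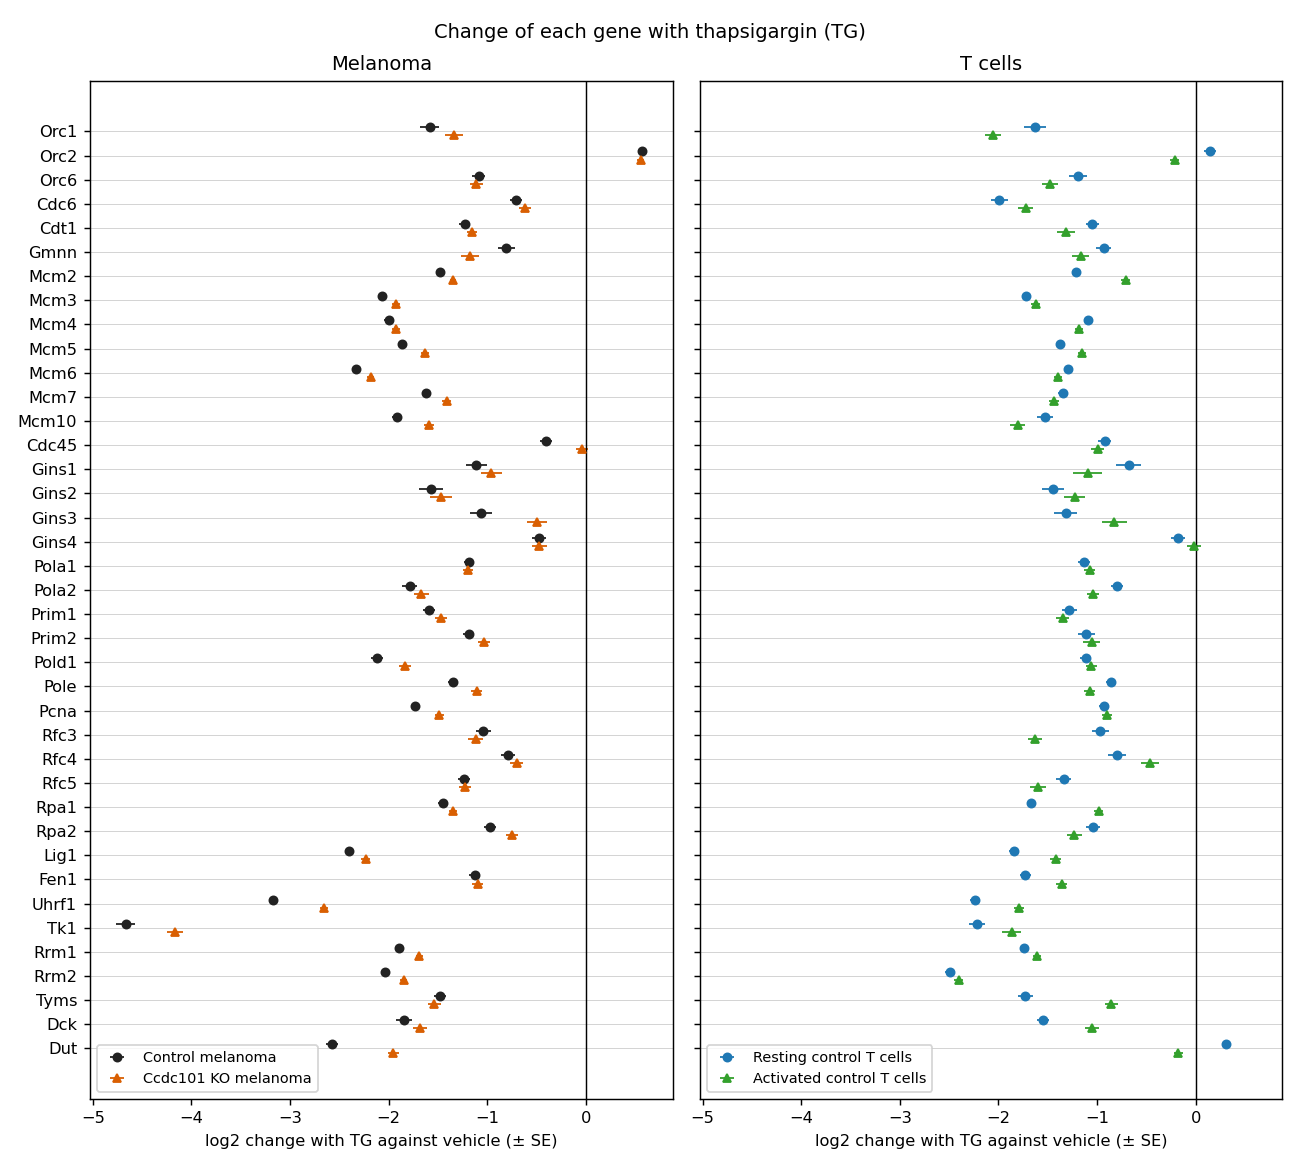
Points give the log2 change of each gene with TG against vehicle and bars its standard error, for control and Ccdc101 KO melanoma on the left and resting and activated control T cells on the right. Tk1 lies farthest left in melanoma, at -4.67 in control and -4.17 in KO cells; Orc2 lies right of 0 in both melanoma genotypes and in resting T cells, and Dut in resting T cells.

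In Ccdc101 KO melanoma TG again lowered nearly all of the genes. Of the 39, 37 fell (36.3% of all tested genes were called lower) and Orc2 rose (34.1% were called higher), with a median log2 change of -1.35 against -0.02 over all genes, and 31 fell at least 2-fold (10.2% of all tested genes). Over the 39 genes the changes with TG in the 2 genotypes had Pearson's r of 0.979 and Spearman's rho of 0.967; the points share the genes' depths and the 2 comparisons share no library. Tk1 went from 121 and 119 to 5.42 and 7.75 CPM (-4.17 ± 0.084), Uhrf1 from 501 and 518 to 81.5 and 80.3 CPM (-2.66 ± 0.04) and Lig1 from 240.5 and 232 to 49.6 and 50.8 CPM (-2.23 ± 0.048). Mcm6 went from 550.0 and 561 to 123 and 122 CPM (-2.18 ± 0.037) and Orc2 from 216 and 226 to 318 and 331 CPM (0.56 ± 0.038). Cdc45 was the gene without a call, at 77.6 and 84.6 CPM with vehicle and 84.5 and 73.8 CPM with TG, where the libraries overlapped (adjusted p = 0.56).

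With vehicle, 12 of the 39 genes were lower in KO than in control melanoma (13.3% of all tested genes were called lower). Their drops were at most 0.28 on the log2 scale, and 0 genes were higher (12.4% of all). The median was -0.09, and edgeR gave 1 higher at an unadjusted p under 0.05, and DESeq2 0. Mcm10 had 168 and 167 CPM in control and 136 and 141 CPM in KO cells (log2 change -0.28 ± 0.042, adjusted p = 2.3e-06), Gins4 50.4 and 51.6 against 41.9 and 42.1 CPM (-0.28 ± 0.066), Dut 137 and 140.3 against 117 and 113 CPM (-0.26 ± 0.045) and Cdt1 171 and 186 against 147 and 155 CPM (-0.24 ± 0.048). In these 4 both KO libraries lay below both control libraries. The other 8 were Mcm2, Prim2, Pold1, Pcna, Rpa1, Lig1, Uhrf1 and Rrm1. The count was 6 with DESeq2 and 7 without the first vehicle library of the KO.

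Under TG, KO and control melanoma differed in 12 of the 39 genes. 8 were higher in the KO (16.6% of all tested genes were called higher) and 4 lower (15% of all were called lower). These counts are shares near those of all tested genes. Dut was at 23.6 and 23.0 CPM in control and 29.8 and 29.7 CPM in KO cells (log2 change 0.35 ± 0.081, adjusted p = 0.00067), Uhrf1 at 60.1 and 62.5 against 81.5 and 80.3 CPM (0.40 ± 0.05), Gins3 at 11.4 and 9.7 against 14.1 and 15.1 CPM (0.47 ± 0.12) and Tk1 at 4.76 and 4.57 against 5.42 and 7.75 CPM (0.52 ± 0.18). The KO libraries were the higher ones in all 4, and Dck, Cdc45, Mcm5 and Rrm2 were the others called higher. Gmnn, at 21.4 and 19 CPM in control and 15.9 and 15.7 CPM in KO cells (-0.35 ± 0.1), Gins4 (-0.28 ± 0.079), Cdt1 (-0.16 ± 0.062) and Orc2 (-0.10 ± 0.037) were called lower. These lower calls rested on single libraries: the count was 2 without the second TG library of the control or the first of the KO, 1 without the second of the KO and 0 without the first of the control. The 8 higher calls were 5 without the second TG library of the control, and DESeq2 gave 5 higher and 0 lower.

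The difference between the 2 genotypes in their response to TG was tested itself. TG lowered 14 of the 39 genes less in KO than in control melanoma (7.16% of all tested genes were called in that direction) and 1, Gmnn, more (5.95%). In 33 of the 39 the estimate had the sign of a smaller drop in the KO, with a median difference of 0.15. The median over all tested genes was 0.00068, and the share of them with that sign was not counted. Dut differed by 0.62 ± 0.092 (adjusted p = 4e-06), Gins3 by 0.57 ± 0.15, Uhrf1 by 0.51 ± 0.061 and Cdc45 by 0.37 ± 0.083, and Gmnn by -0.37 ± 0.13 (adjusted p = 0.048). The other 10 were Mcm2, Mcm5, Mcm6, Mcm7, Mcm10, Pold1, Pole, Pcna, Rrm1 and Rrm2. Tk1, at 0.50 ± 0.18, was not called (adjusted p = 0.067). The call of Gmnn was lost with RLE size factors, with no filter on low counts, with all 20 libraries in 1 fit and with the replicate block. DESeq2 gave no adjusted p for Gmnn or Gins3, so it could call neither. The count of 14 was 6 without the second TG library of the control, 7 without the second TG library of the KO, and 9 without the first vehicle library of either genotype; it was 8 with DESeq2.

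**Figure D3:**
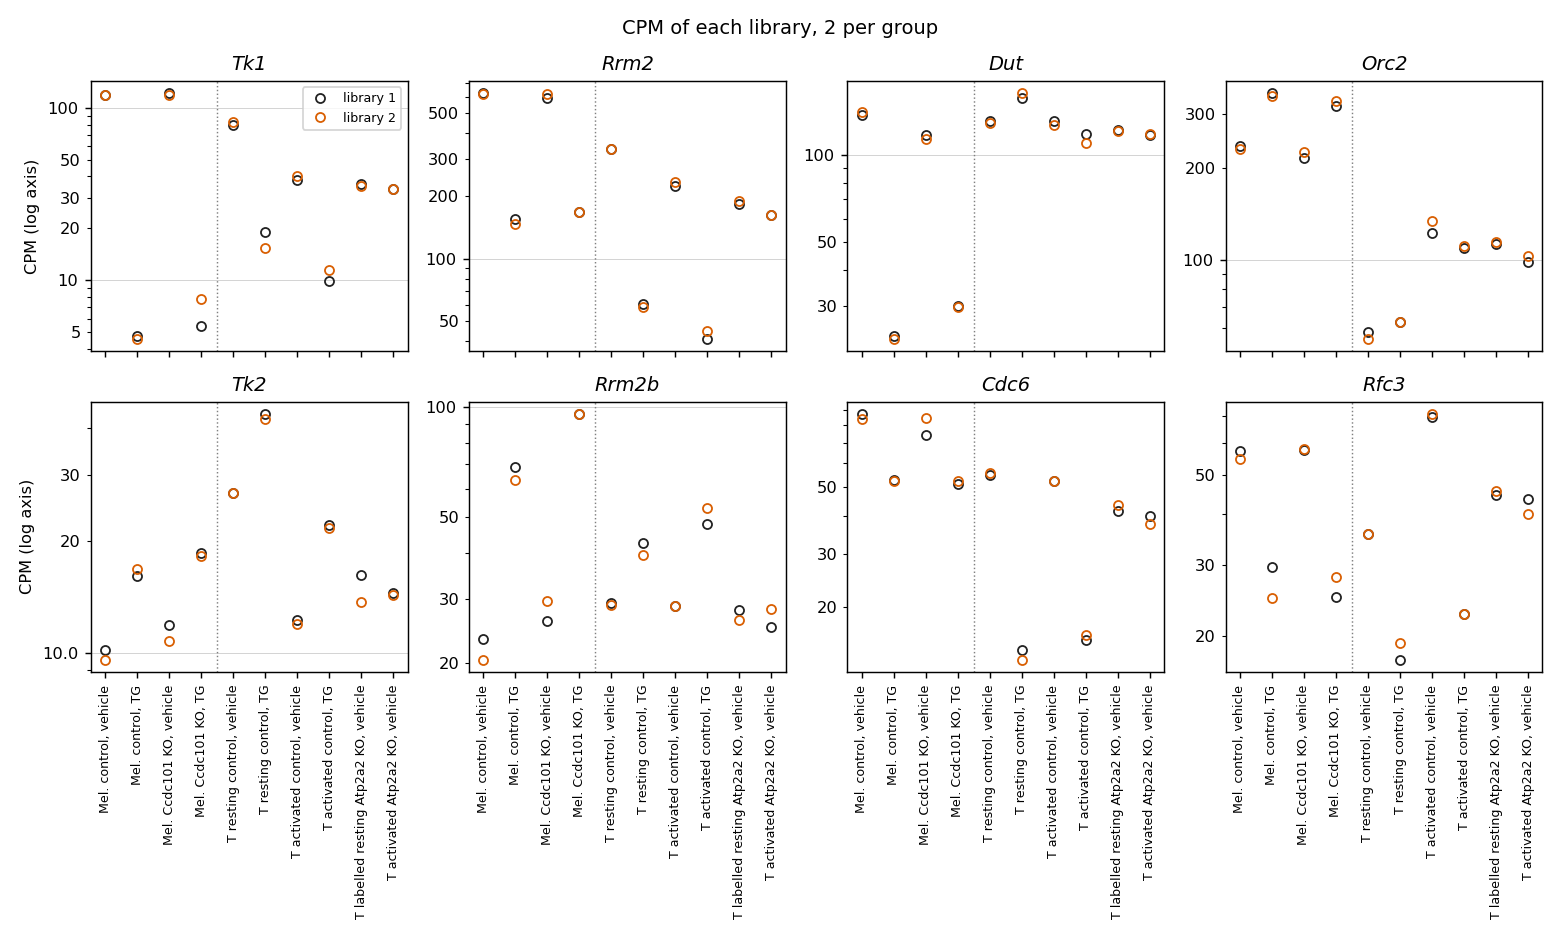
CPM of each library on log axes for 6 of the genes and for Tk2 and Rrm2b, the counterparts of Tk1 and Rrm2 that serve outside S phase; the dotted line divides melanoma from T cells and the 2 colours are the 2 libraries of a group. With TG, Tk1 and Rrm2 are lower and Tk2 and Rrm2b higher than with vehicle in each cell type and state, Dut is low with TG in melanoma and not in T cells, Orc2 is high with TG in melanoma and high in activated T cells, and Rfc3 peaks in activated control T cells.

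In resting control T cells TG lowered 37 of the 39 genes (35.2% of all tested genes were called lower) and raised 2, Dut and Orc2 (34.1% called higher). The median log2 change was -1.28, against 0.0064 over all 13432 tested genes, and 28 genes fell at least 2-fold (13% of all tested genes). None of the 39 had overlapping libraries, but the share of all tested genes without overlap was not counted. Rrm2 had 336 and 336 CPM with vehicle and 60.7 and 58.3 CPM with TG (log2 change -2.50 ± 0.046, adjusted p = 3.8e-46). Uhrf1 went from 252 and 258 to 54.6 and 53.1 CPM (-2.24 ± 0.048), Tk1 from 79.3 and 82.7 to 19.2 and 15.4 CPM (-2.22 ± 0.078) and Cdc6 from 54.8 and 55.7 to 14.4 and 13.3 CPM (-1.99 ± 0.082). In these 4 the TG libraries were well below the vehicle ones.

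The other genes followed with narrower gaps. In resting T cells Rrm1 went from 381 and 359 to 109 and 113 CPM (log2 change -1.74 ± 0.042), Lig1 from 181 and 171 to 48.9 and 49.1 CPM (-1.85 ± 0.051) and Mcm6 from 397 and 403 to 164 and 162 CPM (-1.30 ± 0.04). Pcna went from 209 and 194 to 105 and 107 CPM (-0.93 ± 0.049), Cdt1 from 73.0 and 78.7 to 37.3 and 35.9 CPM (-1.05 ± 0.069) and Gmnn from 54.5 and 49.7 to 28.1 and 26.6 CPM (-0.93 ± 0.074). Both TG libraries were below both vehicle libraries in each.

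Dut rose in resting T cells, from 131 and 128 to 157 and 163 CPM (log2 change 0.31 ± 0.044, adjusted p = 1.3e-08). Orc2 had 57.9 and 55.0 CPM with vehicle and 62.7 and 62.6 CPM with TG (0.15 ± 0.059, adjusted p = 0.024), and this call was lost with DESeq2 and without the second vehicle or the first TG library of resting cells. The helicase subunits fell by between 1.09 (Mcm4) and 1.72 (Mcm3), the polymerase and primase genes by between 0.80 (Pola2) and 1.28 (Prim1), and the clamp, loader and ligation genes by between 0.80 (Rfc4) and 2.24 (Uhrf1). Gins4 had the smallest drop, from 37.2 and 37.8 to 34.1 and 31.9 CPM (-0.18 ± 0.075, adjusted p = 0.032).

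In activated control T cells TG lowered 38 of the 39 genes and raised 0, where 32.4% of all tested genes were called lower and 32.6% higher. The median log2 change was -1.18, against 0.0080 over all genes, and 29 fell at least 2-fold (8.88% of all tested genes). Rrm2 went from 223 and 233 to 41.1 and 44.8 CPM (log2 change -2.41 ± 0.049, adjusted p = 1.7e-43), Orc1 from 56.3 and 60.3 to 14.7 and 13.3 CPM (-2.05 ± 0.082), Tk1 from 38.1 and 40.3 to 9.89 and 11.5 CPM (-1.86 ± 0.095) and Mcm10 from 64.3 and 65.6 to 18.1 and 19 CPM (-1.80 ± 0.075). None of their libraries overlapped. At an unadjusted p under 0.05 edgeR gave 0 genes higher, as did DESeq2 after adjustment. Gins4 was the gene without a call, at 31.0 and 31.3 CPM with vehicle and 29.7 and 31.8 CPM with TG (-0.02 ± 0.075, adjusted p = 0.87). Dut fell slightly, from 130.4 and 127 to 118 and 109.9 CPM (-0.18 ± 0.044), and so did Orc2, from 123 and 134 to 109.8 and 111 CPM (-0.21 ± 0.046).

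Among the remaining genes in activated T cells, Rrm1 went from 319.7 and 328 to 103 and 109 CPM (log2 change -1.61 ± 0.042), Cdc6 from 52.3 and 52.5 to 15.5 and 16.1 CPM (-1.72 ± 0.078) and Lig1 from 112 and 114 to 43.0 and 41.7 CPM (-1.42 ± 0.054). Uhrf1 went from 194 and 189 to 52.6 and 57.8 CPM (-1.79 ± 0.048), Mcm6 from 314 and 315 to 118 and 121 CPM (-1.40 ± 0.041) and Mcm2 from 168 and 165 to 102 and 101 CPM (-0.71 ± 0.043). Pcna went from 182 and 183 to 96.1 and 99.2 CPM (-0.90 ± 0.049), Cdt1 from 39.8 and 39 to 18.2 and 13.7 CPM (-1.32 ± 0.089) and Gmnn from 39.9 and 38.0 to 17.2 and 17.5 CPM (-1.17 ± 0.082). The TG libraries were the lower ones in all 9. By role, the median change in activated cells ran from -1.04 in helicase activation to -1.40 in licensing.

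The response to TG differed between activated and resting T cells in 19 of the 39 genes. 11 had a smaller drop in activated cells (26.7% of all tested genes were called in that direction) and 8 a larger drop, or a fall in place of a rise (25.2%). The shares of the 39 thus lay near those of all tested genes in both directions. Tyms fell from 62.9 and 64.8 to 19 and 19.6 CPM in resting and from 55.7 and 54.6 to 30.2 and 30.8 CPM in activated cells, a difference of 0.87 ± 0.1 (adjusted p = 1.6e-10). Rpa1 fell from 384 and 364 to 119 and 117 CPM in resting and from 187 and 188 to 94.6 and 95.1 CPM in activated cells (0.69 ± 0.064). Mcm2 fell from 223 and 221 to 95.4 and 96.1 CPM in resting and from 168 and 165 to 102 and 101 CPM in activated cells (0.50 ± 0.061), and Dck from 139.6 and 126 to 44.8 and 46.0 and from 63.5 and 61.9 to 27.4 and 32.8 CPM (0.50 ± 0.094). In these 4 genes the vehicle level was lower in activated than in resting cells. The other 7 were Mcm5, Gins3, Rfc4, Lig1, Fen1, Uhrf1 and Tk1.

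Rfc3 fell further in activated cells, from 69.7 and 70.8 to 22.7 and 22.7 CPM, than in resting cells, from 35.9 and 35.8 to 17.5 and 19.3 CPM (difference -0.66 ± 0.11, adjusted p = 1.6e-06). Dut (-0.48 ± 0.062), Orc1 (-0.42 ± 0.15) and Orc2 (-0.36 ± 0.075) had the same sign, and Cdt1, Mcm10, Pola2 and Pole were the other 4. The 11 and 8 calls became 7 and 13 without the second TG library of resting cells, and the 13 held all of the 8. Without the filter on low counts they became 7 and 13 as well, and with DESeq2 the 8 became 3; the cause was not tested.

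Over all 4 comparisons of TG with vehicle, 35 of the 39 genes fell in each, and 22 fell at least 2-fold in each. Of the 11195 genes tested in both cell types, 13.8% fell in each and 1.93% fell at least 2-fold in each. Both comparisons of 1 cell type came from 1 fit. The exceptions were Orc2, Cdc45, Gins4 and Dut. Between control melanoma and resting T cells, which share no library, the changes of the 39 genes had Pearson's r of 0.507 and Spearman's rho of 0.469, and between melanoma and activated T cells 0.434 and 0.351. Between resting and activated T cells they were 0.803 and 0.645. The points share the genes and not the libraries.

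The difference between melanoma and T cells in the response to TG was tested in 1 fit of all 20 libraries. Against resting T cells, 20 of the 39 genes fell further in melanoma (23.8% of all 14824 tested genes were called in that direction) and 6 less (23.6%). Against activated T cells, 21 fell further in melanoma (21.8%) and 10 less, or rose (21.6%). All 6 MCM subunits fell further in melanoma in both, and 18 genes did so in both. The 2 comparisons share the control melanoma libraries, and the share of all tested genes called in both was not counted. Dut differed by -2.90 ± 0.076 against resting T cells (adjusted p = 7.9e-47) and -2.42 ± 0.077 against activated ones, and Tk1 by -2.47 ± 0.16 and -2.83 ± 0.17. These were the largest differences among the 39 genes in each comparison. Mcm6 differed by -1.06 ± 0.056 against resting T cells, Pold1 by -1.02 ± 0.093 and -1.09 ± 0.093, and Uhrf1 by -1.40 ± 0.067 against activated T cells. In the other direction Cdc6 kept more of its level in melanoma, with differences of 1.26 ± 0.11 (adjusted p = 2.4e-17) and 0.99 ± 0.1. Fen1 (0.58 ± 0.083), Cdc45 (0.50 ± 0.094) and Rrm2 (0.44 ± 0.061) did so against resting T cells, and Orc2 (0.76 ± 0.059), Rfc3 (0.56 ± 0.11) and Cdc45 (0.56 ± 0.093) against activated ones.

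**Figure D4:**
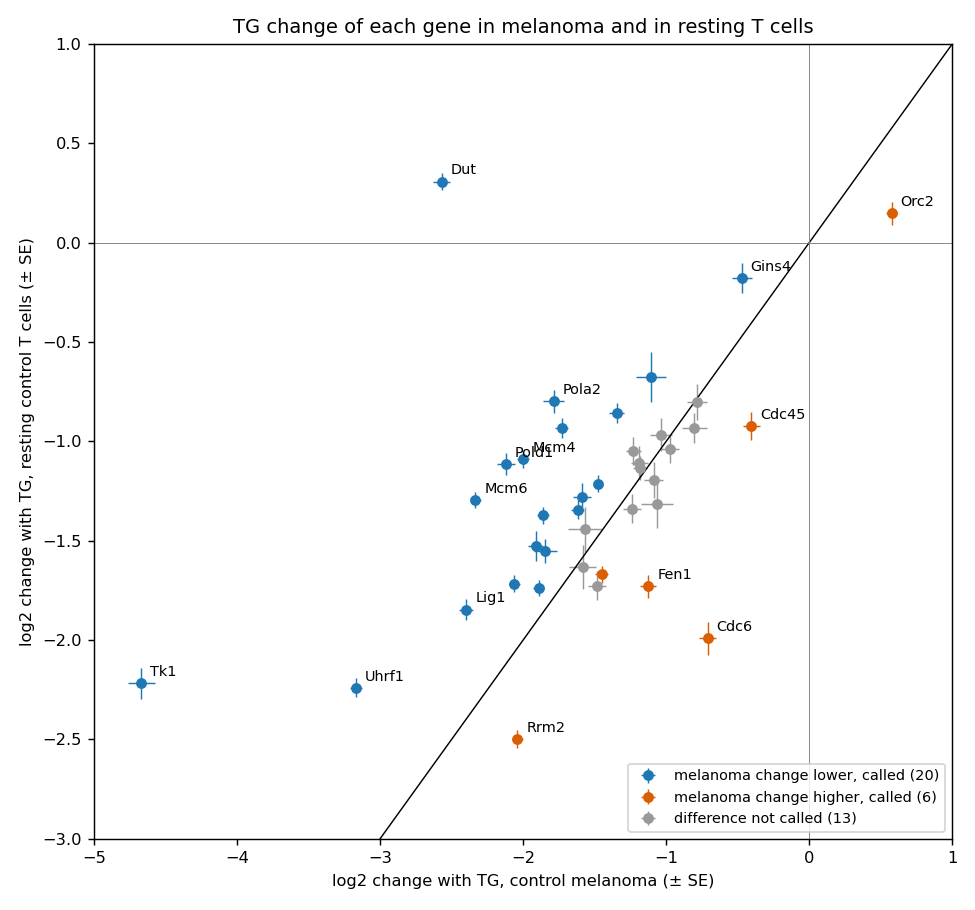
Each point is a gene, with its log2 change with TG in control melanoma on the horizontal and in resting control T cells on the vertical axis, bars giving standard errors and the diagonal line equal changes; the 2 axes have different scales. Blue genes (20) fell further in melanoma, orange genes (6) fell less or rose more there, and grey genes (13) had no call for the difference. Dut lies alone at upper left and Tk1 at far left.

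Activation of control T cells with anti-CD3 lowered most of the genes by small amounts and raised a few licensing genes. With vehicle, 28 of the 39 were lower in activated than in resting cells (39.1% of all tested genes were called lower) and 5 higher (35.3%). The median log2 change was -0.26, against -0.04 over all tested genes, and 2 genes changed at least 2-fold in each direction (12.2% of all tested genes higher and 15.8% lower). The genes that rose were subunits of the origin recognition complex and 2 others. Orc2 went from 57.9 and 55.0 to 123 and 134 CPM (1.18 ± 0.052, adjusted p = 7.2e-28), Orc1 from 26.6 and 26.7 to 56.3 and 60.3 CPM (1.12 ± 0.073, adjusted p = 2.1e-20) and Orc6 from 45.8 and 42.8 to 58.2 and 64.4 CPM (0.46 ± 0.07). Rfc3 went from 35.9 and 35.8 to 69.7 and 70.8 CPM (0.97 ± 0.064) and Prim1 from 62.6 and 58.2 to 66.2 and 70.3 CPM (0.17 ± 0.058). In all 5 both activated libraries lay above both resting ones; Nif3l1, which overlaps Orc2, rose by 0.71 as well.

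The largest drops with activation were in deoxynucleotide salvage, licensing and single-strand binding. Dck went from 139.6 and 126 to 63.5 and 61.9 CPM (log2 change -1.08 ± 0.054, adjusted p = 5.5e-25), Tk1 from 79.3 and 82.7 to 38.1 and 40.3 CPM (-1.05 ± 0.064), Rpa1 from 384 and 364 to 187 and 188 CPM (-1.0 ± 0.04) and Cdt1 from 73.0 and 78.7 to 39.8 and 39 CPM (-0.94 ± 0.066). The activated libraries were the lower ones in each. Of the MCM subunits 5 fell, by between 0.26 and 0.41, and Mcm3 had no call, at 281 and 277 against 268 and 274 CPM. Cdc6, Mcm10, Cdc45, Gins2 and Dut had no call either, with log2 changes between -0.08 and 0.07. Genes of de novo purine and pyrimidine synthesis moved the other way, with a median of 0.81. Of 17, 15 rose with activation (35.3% of all tested genes) and 2 fell (39.1%). The 28 that fell included Pcna, from 209 and 194 to 182 and 183 CPM (-0.15 ± 0.045), Rrm1, from 381 and 359 to 319.7 and 328 CPM (-0.19 ± 0.038), and Rrm2, from 336 and 336 to 223 and 233 CPM (-0.56 ± 0.038).

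With TG in both arms, activation lowered 18 of the 39 genes (31.9% of all tested genes were called lower) and raised 4 (32%). Those that rose were Orc2, from 62.7 and 62.6 to 109.8 and 111 CPM (0.82 ± 0.052), Orc1, from 8.88 and 8.26 to 14.7 and 13.3 CPM (0.70 ± 0.13), Tyms, from 19 and 19.6 to 30.2 and 30.8 CPM (0.66 ± 0.084), and Rfc3, from 17.5 and 19.3 to 22.7 and 22.7 CPM (0.31 ± 0.092). Cdt1 went from 37.3 and 35.9 to 18.2 and 13.7 CPM (-1.21 ± 0.093), Gins1 from 9.7 and 8.43 to 5.37 and 4.51 CPM (-0.89 ± 0.16), Rpa2 from 29.8 and 30.9 to 18.1 and 18.5 CPM (-0.73 ± 0.088) and Tk1 from 19.2 and 15.4 to 9.89 and 11.5 CPM (-0.70 ± 0.12). The libraries of the 2 states did not overlap in these 8 genes.

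**Figure D5:**
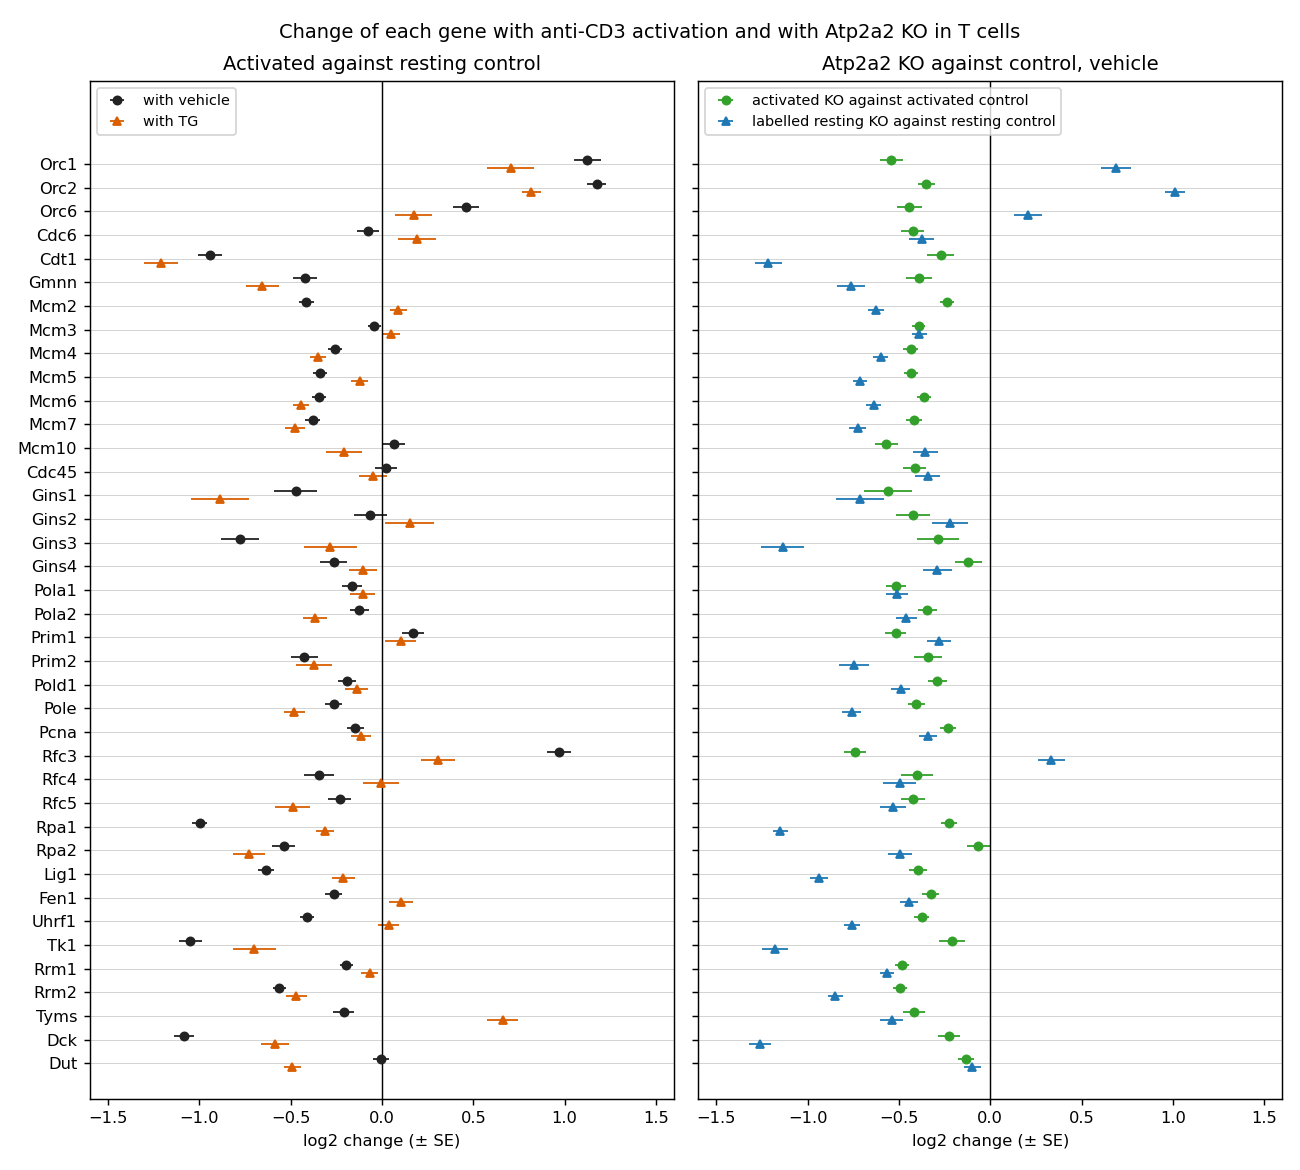
Points give log2 changes and bars standard errors, on the left for activated against resting control T cells with vehicle or TG, and on the right for Atp2a2 KO against control T cells. Orc1, Orc2 and Rfc3 lie right of 0 on the left panel; on the right panel all 39 points of activated KO against activated control lie left of 0, between -0.74 and -0.06.

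In activated T cells nearly all of the genes were lower in Atp2a2 KO than in control cells, by less than 2-fold. 37 of the 39 fell and 0 rose, where 19.6% of all tested genes were called lower and 17.5% higher. The median was -0.40, against -0.0043 over all tested genes. No gene of the 39 changed 2-fold (2.61% of all tested genes were called and at least 2-fold higher and 0.476% lower). Their libraries did not overlap, but the share of all tested genes without overlap was not counted. At an unadjusted p under 0.05 edgeR gave 0 genes higher, as did DESeq2 after adjustment. The counts were 37 and 0 as well when the libraries labelled resting Atp2a2 KO were left out of the fit. Rfc3 went from 69.7 and 70.8 CPM in control to 43.6 and 40 CPM in KO cells (log2 change -0.74 ± 0.059, adjusted p = 1.2e-15), Mcm10 from 64.3 and 65.6 to 43.0 and 44.7 CPM (-0.57 ± 0.061), Gins1 from 10.6 and 10.4 to 7.24 and 6.96 CPM (-0.56 ± 0.13) and Orc1 from 56.3 and 60.3 to 38.4 and 41.8 CPM (-0.54 ± 0.065). The KO libraries were the lower ones in each.

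Across roles the medians in activated KO cells ran only from -0.42 (helicase activation) to -0.32 (deoxynucleotide supply). Rrm2 went from 223 and 233 to 162 and 162 CPM (-0.49 ± 0.04), Mcm6 from 314 and 315 to 234 and 257 CPM (-0.36 ± 0.038), Pcna from 182 and 183 to 146 and 167 CPM (-0.23 ± 0.046) and Tk1 from 38.1 and 40.3 to 33.8 and 33.8 CPM (-0.21 ± 0.072). Tk1, which TG lowered by 1.86 in activated control cells, was thus among the genes that moved least. Gins4, at 28.9 and 28.3 CPM in KO cells (-0.12 ± 0.074, adjusted p = 0.21), and Rpa2, at 40.6 and 41.7 CPM (-0.06 ± 0.065, adjusted p = 0.47), had no call. The 5 genes that rose with activation, Orc1, Orc2, Orc6, Rfc3 and Prim1, were all lower in activated KO than in activated control cells; the 2 comparisons share the activated control libraries.

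The libraries labelled resting Atp2a2 KO were lower than resting control cells in 34 of the 39 genes (35.9% of all tested genes were called lower) and higher in 4, Orc1, Orc2, Orc6 and Rfc3 (33.7%). Dck had 139.6 and 126 CPM in resting control and 53.5 and 57.5 CPM in these libraries (log2 change -1.26 ± 0.06), Cdt1 73.0 and 78.7 against 34.2 and 30.9 CPM (-1.21 ± 0.074), Tk1 79.3 and 82.7 against 36.2 and 35.3 CPM (-1.18 ± 0.07) and Rpa1 384 and 364 against 167 and 171 CPM (-1.15 ± 0.043). Orc2 had 113 and 115 CPM (1.01 ± 0.055) and Orc1 44.8 and 40.9 CPM (0.69 ± 0.082), both above resting control. Dut had no call (-0.10 ± 0.046, adjusted p = 0.055). Because these libraries went against their label, the comparison is between the libraries so labelled and resting control cells, and no direction for the knockout in resting cells is drawn from it.

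Activated KO cells and the libraries labelled resting Atp2a2 KO differed in 1 of the 39 genes, which was lower in activated cells (0.119% of all tested genes were called lower and 0.469% higher). Rrm2 was at 184 and 189.8 CPM in the labelled resting and 162 and 162 CPM in the activated libraries (-0.21 ± 0.042, adjusted p = 0.0044). The call was lost without the first activated or the second labelled resting library, and 2 genes were called without the second activated library. 35 of the 39 estimates were below 0, with a median of -0.08 against -0.0015 over all tested genes. With edgeR 0 genes were called higher and 0 were higher at an unadjusted p under 0.05, where 11 were lower. The shares of all tested genes with that sign or such unadjusted p-values were not counted. DESeq2 called 0 higher. It gave no adjusted p for many of the 39, among them Orc1, Cdc6, Cdt1, Tk1 and Tyms, and so could not call these.

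Other genes of the pathway, taken from lists chosen with earlier results of these data known, mostly fell with TG. Of 38 other replication factors, 31 fell and 5 rose in control melanoma, 32 fell and 2 rose in resting T cells, and 29 fell and 3 rose in activated T cells. Over all tested genes 36.1% fell and 35.7% rose in control melanoma, 35.2% and 34.1% in resting and 32.4% and 32.6% in activated T cells. In melanoma the largest drops were in Chaf1b, a histone chaperone of the fork (-2.47 ± 0.074), the checkpoint mediator Clspn (-1.99 ± 0.069) and the nuclease Dna2 (-1.97 ± 0.084). Those that rose were Pold4 (0.95 ± 0.18), Recql4 (0.57 ± 0.064) and the origin recognition subunits Orc5 (0.53 ± 0.075), Orc4 (0.36 ± 0.05) and Orc3 (0.20 ± 0.053). With Orc2 among the 39, the subunits of the complex that rose in melanoma were Orc2, Orc3, Orc4 and Orc5, and those that fell were Orc1 and Orc6. In resting T cells Pclaf, a PCNA-binding factor (-2.33 ± 0.052), Clspn (-2.16 ± 0.066) and the chaperone Asf1b (-1.96 ± 0.066) fell most, while Orc4 (0.47 ± 0.067) and Recql4 (0.25 ± 0.095) rose. In activated T cells Dna2 (-2.49 ± 0.11), Clspn (-2.12 ± 0.079) and the topoisomerase Top2a (-1.85 ± 0.036) fell most, while Pold4 (0.56 ± 0.074), Recql4 (0.41 ± 0.076) and Ctc1 (0.30 ± 0.057) rose. With activation 26 of the 38 fell and 8 rose (39.1% and 35.3% of all tested genes), led by Asf1b (-1.26 ± 0.058), Donson (-0.98 ± 0.073) and Top2a (-0.91 ± 0.033) down and Orc4 (0.80 ± 0.063), Pold2 (0.56 ± 0.055) and Recql4 (0.50 ± 0.088) up. In activated Atp2a2 KO cells 27 of the 38 were lower than in activated control cells and Pold4 was higher (0.40 ± 0.073), where 19.6% of all tested genes were lower and 17.5% higher.

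Genes of deoxynucleotide handling outside the 39 went both ways. Of 20 listed, Cda passed the filter in no fit and Upp1 not in melanoma. Of 18 tested in melanoma, 12 fell and 4 rose with TG (36.1% and 35.7% of all tested genes). Rrm2b, the reductase subunit used outside S phase and a p53 target, went from 23.2 and 20.4 to 68.7 and 63.3 CPM (1.59 ± 0.074, adjusted p = 1.7e-22), and Tk2, the mitochondrial thymidine kinase, from 10.2 and 9.62 to 16.1 and 16.8 CPM (0.73 ± 0.12). Dguok, the mitochondrial deoxyguanosine kinase, rose too (0.55 ± 0.1). Rrm2b and Tk2 rose in all 4 comparisons with TG, while Rrm2 and Tk1 fell in all 4: in resting T cells Rrm2b had 29.2 and 28.8 CPM with vehicle and 42.6 and 39.5 CPM with TG (0.50 ± 0.079) and Tk2 26.8 and 26.8 against 43.7 and 42.3 CPM (0.68 ± 0.079). Cmpk2 (-2.80 ± 0.28) and the nucleoside transporters Slc29a1 (-2.53 ± 0.068) and Slc29a2 (-1.99 ± 0.55) fell most in melanoma.

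In resting T cells 8 of 19 of these genes fell with TG and 7 rose, shares near those of all tested genes (35.2% and 34.1%). Slc29a1 had 77.8 and 76.5 CPM with vehicle and 237 and 249.7 CPM with TG (1.66 ± 0.046), and Adk, adenosine kinase, 19.5 and 20.2 against 61.8 and 59.4 CPM (1.61 ± 0.076), so both moved up where they moved down in melanoma; the difference between the cell types was -4.21 ± 0.082 and -3.13 ± 0.11. Upp1 (-2.79 ± 0.12) and Nme1 (-1.31 ± 0.055) were among those that fell. In activated T cells 10 fell and 6 rose (32.4% and 32.6% of all tested genes). With activation 8 of 19 rose and 7 fell, again near the 35.3% and 39.1% of all tested genes. The rises were led by Slc29a2 (2.75 ± 0.18), Dctd (2.11 ± 0.099) and Nme4 (1.6 ± 0.16), and the drops by Cmpk2 (-2.12 ± 0.2), Samhd1, which breaks down deoxynucleotides (-1.66 ± 0.037), and Dguok (-1.42 ± 0.097).

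The 17 enzymes of de novo purine and pyrimidine synthesis fell with TG in melanoma in 16 cases, led by Prps2 (-1.84 ± 0.084), Paics (-1.71 ± 0.044) and Umps (-1.59 ± 0.057), and Impdh1 rose (1.44 ± 0.054). With TG in resting T cells 13 fell, led by Ctps2 (-1.26 ± 0.075), Umps (-1.01 ± 0.061) and Gart (-0.79 ± 0.044), and Adss (1.70 ± 0.042) and Prps1 (0.50 ± 0.057) rose. In activated T cells 15 fell and 1 rose. Of all tested genes 36.1% fell and 35.7% rose with TG in control melanoma. The shares were 35.2% and 34.1% in resting and 32.4% and 32.6% in activated T cells. With activation, Ctps went from 58.5 and 57.4 to 159 and 171 CPM (1.51 ± 0.049), Cad from 236 and 236 to 641 and 610.4 CPM (1.41 ± 0.037) and Pfas from 77.1 and 80.3 to 203 and 200.3 CPM (1.36 ± 0.046), whereas Ctps2 (-1.70 ± 0.077) and Prps2 (-0.17 ± 0.049) fell. In activated Atp2a2 KO cells 14 of the 17 were lower than in activated control cells and Ctps2 was higher (0.23 ± 0.089). Of all tested genes 19.6% were lower and 17.5% higher there.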

How the data were processed

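The values are gene counts as deposited, for 20 libraries. STAR 2.6.0c, HTSeq (no version) and the build GRCm38/mm10 are named per the submitters' processing notes; strand setting and annotation release are not given in the sources used here. Of 46603 Ensembl identifiers 46005 were named from GENCODE M21, and 598 stayed unnamed, with 0.0759% of all counts. The 39 genes and all gene lists were chosen with earlier results of these data known.

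Counts were fitted in edgeR 4.0.16 (limma 3.58.1, R 4.3.3) with TMM scaling, filterByExpr and the robust quasi-likelihood test, 1 mean per group. The 8 melanoma libraries were fitted alone on 12540 genes, the 12 T cell libraries on 13432 and, for differences between cell types, all 20 on 14824, with 4, 6 and 10 residual degrees of freedom. P-values were adjusted by Benjamini-Hochberg over all tested genes, and genes were called at an adjusted p under 0.05. The standard error is the size of the log2 change over the square root of F. CPM carry the TMM scaling of the cell type's own fit, except levels per kilobase, which carry that of all 20 libraries.

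Full values are given for up to 4 called genes with the largest log2 change in each direction per comparison and for a panel (Tk1, Rrm2, Rrm1, Cdc6, Cdt1, Gmnn, Mcm2, Mcm6, Pcna, Lig1, Dck, Dut, Orc2 and Rpa1). Genes that were not called or went against most are named, as are up to 3 called genes in each direction from the other lists with TG and activation. Other genes named from these lists (Atr, Atrip, Rbl1 and Rbl2 in melanoma, and Pold4, Ctps2 and Atr in Atp2a2 KO cells) were chosen after their values were seen. The values of 1 gene that the rule would name are not reported here.

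Alternatives were a replicate block, RLE (relative log expression) size factors, testing every gene with counts, requiring 5 CPM in 2 or more libraries, DESeq2 1.42.0, all 20 libraries, the compared groups alone, each library left out, and the T cell fit without the libraries labelled resting Atp2a2 KO. The fits were checked on simulated data: for TG in control melanoma (12067 genes) edgeR recovered 80% of 1.25-fold and 100% of 2-fold changes with 10 false calls, and for TG in resting T cells (12532 genes) 56% and 100% with 8. The 2 libraries of each group differed by more than counting noise (chi-square over degrees of freedom between 1.43 and 3.09), so none was counted as a duplicate. Promoters were read from RefSeq on GRCm38.p6.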

Additional observations from a re-analysis of the deposited data

Results flagged for a closer look

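The results named here are genes whose response to TG differed between 2 groups by a test of the difference itself, with edgeR's quasi-likelihood test adjusted over all tested genes. They are those of the 39 genes with the largest called differences in each comparison, up to 4 in each direction. Groups of 2 libraries allow no search for a single outlying library.

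Between Ccdc101 KO and control melanoma the difference in log2 change was 0.62 for Dut, 0.57 for Gins3, 0.51 for Uhrf1 and 0.37 for Cdc45, which all kept more of their level in the KO, and -0.37 for Gmnn, which fell further there. The call of Gmnn (adjusted p = 0.048 with edgeR) was lost with RLE size factors, no filter, all 20 libraries and the replicate block. DESeq2 gave no adjusted p for Gmnn or Gins3. Between activated and resting control T cells it was 0.87 for Tyms, 0.69 for Rpa1, 0.50 for Mcm2 and 0.50 for Dck, which fell less in activated cells, and -0.66 for Rfc3, -0.48 for Dut, -0.42 for Orc1 and -0.36 for Orc2.

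Between control melanoma and resting T cells the difference was -2.90 for Dut, -2.47 for Tk1, -1.06 for Mcm6 and -1.02 for Pold1, which fell further in melanoma, and 1.26 for Cdc6, 0.58 for Fen1, 0.50 for Cdc45 and 0.44 for Rrm2. Against activated T cells the difference was -2.83 for Tk1, -2.42 for Dut, -1.40 for Uhrf1 and -1.09 for Pold1, and 0.99 for Cdc6, 0.76 for Orc2, 0.56 for Rfc3 and 0.56 for Cdc45. Dut rose in resting T cells and fell in melanoma, and Orc2 rose in melanoma and fell in activated T cells. The cell types also differ in vehicle level, whose part in the differences was not tested.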

How the results depend on the processing

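The counts of genes called higher and lower were recomputed for each comparison under each alternative that applied to it. Of the 374 counts so obtained, 337 lay within 1.5 times the reported one, a count of 0 that stayed 0 included. Of 7269 values of single genes 0 reversed, 269 lost and 74 gained a call. The counts for TG against vehicle in melanoma and in activated T cells, for activation and for Atp2a2 KO against control stayed within 1.5 times under every alternative run, and so did the 37 lower in resting T cells. The exceptions were these. For KO minus control melanoma, the 1 gene that fell further (Gmnn) became 0 with relative log expression scaling, with no filter, with all 20 libraries, with DESeq2 (which gave no adjusted p for Gmnn) and with the replicate block, and 0 to 1 with a library left out; the 14 became 8 with DESeq2 and 6 to 13 with a library left out. For KO against control melanoma with TG, the 4 lower became 2 with no filter, 0 with DESeq2 and 0 to 2 with a library left out, and the 8 higher became 5 with DESeq2 and 5 to 7. With vehicle, the 12 lower became 6 with DESeq2 and 7 to 14. For activated minus resting T cells, the 11 became 7 with no filter and 7 to 12 with a library left out, and the 8 became 13, 3 with DESeq2 and 6 to 13; both ends, 7 and 13, came without resting TG replicate 2. The 2 higher with TG in resting T cells became 1 with DESeq2 and 1 to 2. Activated against labelled resting Atp2a2 KO libraries gave 0 to 2 lower, 0 without activated replicate 1 or labelled resting replicate 2. The cause was not tested. For KO minus control melanoma DESeq2 gave no adjusted p for Gins3, 1 of the 14, and so could not call it. The replicate numbers showed no pairing of the libraries. To check this, the log2 CPM of replicate 1 minus that of replicate 2 was taken for each gene within each group. These differences correlated between groups at -0.079 to 0.025 in melanoma and -0.108 to 0.110 in T cells. With the replicate block 38 genes were lower with TG in control melanoma and 37 lower in activated Atp2a2 KO than in activated control cells. Over all genes DESeq2 called fewer: 561 higher and 947 lower in place of 1550 and 1668 for the Ccdc101 KO with vehicle, 1046 and 1080 in place of 2078 and 1878 with TG, 447 and 224 in place of 898 and 746 for the difference in TG response, 1477 and 1679 in place of 2357 and 2629 for activated Atp2a2 KO, and 31 and 4 in place of 63 and 16 between the KO libraries. With no filter the 898 became 1383 and the 63 became 165; the 16 became 8 with all 20 libraries and 7 with the compared groups alone. Depth limits the genes at a few CPM, such as Tk1 with TG in melanoma.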

Other observations

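A list of E2F and pocket protein genes, which also holds Tfdp1, Tfdp2, Lin9, Lin54, Mybl2 and Foxm1, mostly fell with TG. Of 17, 13 fell and 1 rose in control melanoma, 13 fell and 3 rose in resting T cells, and 15 fell and 2 rose in activated T cells; with activation 8 fell and 5 rose. Over all tested genes 36.1% fell and 35.7% rose with TG in control melanoma, 35.2% and 34.1% in resting and 32.4% and 32.6% in activated T cells, and with activation 39.1% fell and 35.3% rose, so that the shares for activation lie near those of all genes. E2f8, an E2F that represses, went from 88.2 and 87.7 to 11.8 and 9.7 CPM in control melanoma (log2 change -3.03 ± 0.083), E2f2, an activating E2F, from 29.2 and 26.0 to 4.56 and 4.19 CPM (-2.66 ± 0.13) and E2f1 from 76.4 and 81.7 to 16.8 and 18.7 CPM (-2.15 ± 0.074). Rb1, a pocket protein, rose from 22.1 and 23.1 to 31.0 and 29.3 CPM (0.42 ± 0.083). The other pocket protein genes had lower CPM with TG in control melanoma. Rbl1 went from 116 and 116 to 68.7 and 75.5 CPM and Rbl2 from 65.7 and 68.2 to 54.3 and 55.6 CPM. In resting T cells E2f8 (-2.12 ± 0.07), E2f7 (-1.97 ± 0.12) and E2f2 (-1.84 ± 0.07) fell most, and Tfdp2 (1.24 ± 0.087), E2f5 (0.71 ± 0.17) and Lin54 (0.30 ± 0.075) rose. With activation E2f2 (-1.88 ± 0.067), E2f7 (-1.46 ± 0.1) and Foxm1 (-1.29 ± 0.053) fell most, and E2f5 (1.59 ± 0.14), Tfdp1 (0.59 ± 0.044) and Lin54 (0.37 ± 0.072) rose. For every gene named with a rise or fall, the libraries compared did not overlap.

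Of 17 genes of the replication checkpoint and fork repair, 15 fell with TG in control melanoma, 13 fell and 3 rose in resting T cells, and 15 fell and 1, Rad18, rose in activated T cells. Of all tested genes 36.1% fell and 35.7% rose in control melanoma, 35.2% and 34.1% in resting and 32.4% and 32.6% in activated T cells. In melanoma Exo1, an end-resecting nuclease (-1.86 ± 0.063), Bard1, the partner of Brca1 (-1.76 ± 0.093), and Fanci, a Fanconi anaemia factor (-1.73 ± 0.075), fell most. Atr (0.04 ± 0.067) and Atrip (0.62 ± 0.32), the kinase and its partner that sense stalled forks, had no call. In resting T cells Rad51ap1 (-1.88 ± 0.095), Fanci (-1.64 ± 0.08) and Exo1 (-1.53 ± 0.11) fell most, while Atrip (1.71 ± 0.51), Atr (0.46 ± 0.05) and Rad18 (0.36 ± 0.066) rose. In activated Atp2a2 KO cells 14 of the 17 were lower than in activated control cells and Atr was higher (0.16 ± 0.051). Of all tested genes 19.6% were lower and 17.5% higher in that comparison.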
